A study of Mus musculus with 6 samples.

Results

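Transitional B cells were examined in single-cell RNA-seq libraries of mouse spleen. They were chosen by a gate on raw UMIs, the molecular counts of 10x Genomics libraries: at least 2 UMIs of Cd79a, none of Cd3e, Cd3d, Csf1r, Cr2 or Bhlhe41, and at least 2 UMIs of Cd93, Akap12 and Cecr2 together. Of 31457 kept cells, 15342 were gated B cells (at least 2 Cd79a UMIs and none of Cd3e, Cd3d or Csf1r), and 556 of these were transitional. The values of these 9 genes chose the cells, so they are described below and not tested. The study fed wild-type C57BL/6 mice, 6 weeks old at the start, one of 2 diets for 7 weeks, ND or MCDHFD, and describes the animals as models of MASH (metabolic dysfunction-associated steatohepatitis). The labels do not spell out the diet names, and the titles write MCD for the second. Each diet has 3 libraries of unsorted splenocytes. Nothing in the labels says whether each library came from a separate mouse, so p-values measure the spread between libraries, which may in part be technical.

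Transitional B cells are recent emigrants from the bone marrow that pass through the spleen before they become follicular or marginal zone B cells. They carry CD93 and high CD24. The earliest of them lack CD21 (encoded by Cr2), and CD23 (encoded by Fcer2a) and IgD are gained as they mature. Self-reactive clones are removed at this stage, and survival of the later cells depends on the cytokine BAFF.

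The libraries were deposited in 2 forms. ND replicate 2 and MCDHFD replicate 3 came with barcode lists that were already filtered, and the other 4 with unfiltered lists. The 2 forms also carry different Cell Ranger versions in their headers, so the diet comparisons across genes include the form as a term unless stated otherwise. Kept cells per library ran from 3273 to 6606 and their median depth from 4469 to 6202 UMIs. At most 18 kept barcodes were shared by 2 libraries, and 1 barcode was transitional in 2 of them.

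Transitional cells made up a smaller part of the B cells on MCDHFD in every library. The gate held 194, 96 and 154 cells of ND replicates 1 to 3 and 56, 44 and 12 of the MCDHFD replicates. As a share of gated B cells this was 4.9, 5.35 and 5.19% on ND and 2.1, 1.64 and 0.947% on MCDHFD. The lowest ND library lay above the highest MCDHFD library, and the means were 5.15% ± 0.232 (SD, n = 3) and 1.56% ± 0.578 (SD, n = 3), a 3.3-fold difference. The two-sided exact permutation test gave p = 0.1, the smallest value that 3 libraries against 3 allow. Within the unfiltered libraries the means were 5.04% and 1.87%, and within the filtered pair the shares were 5.35% and 0.947%.

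Depth moved the level of the share but not the order of the diets. With every kept cell thinned to 2000 UMIs, which left out 152 to 358 shallower kept cells of all types per library, the share was 2.59, 2.5 and 2.51% on ND and 0.829, 0.739 and 0.172% on MCDHFD. With at least 1 UMI in each of 2 of the 3 genes in place of 2 UMIs in all, it was 2.52, 2.29 and 2.12% against 0.374, 0.41 and 0.316%. With no condition on Cr2 and Bhlhe41 the means were 11.7% on ND and 4.66% on MCDHFD, again without overlap. The gate therefore leaves out many cells that hold UMIs of the 3 genes together with Cr2 or Bhlhe41. Relative to all kept cells, the means were 3.00% and 0.619%, a 4.85-fold difference that also carries the lower share of B cells among kept cells on MCDHFD (60.7, 54.8 and 59.9% on ND against 40.5, 40.8 and 35.9%). The gate counts a cell only when it holds enough UMIs of the 3 genes, so fewer transitional cells and less of this RNA per cell cannot be told apart by the share.

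**Figure D1:**
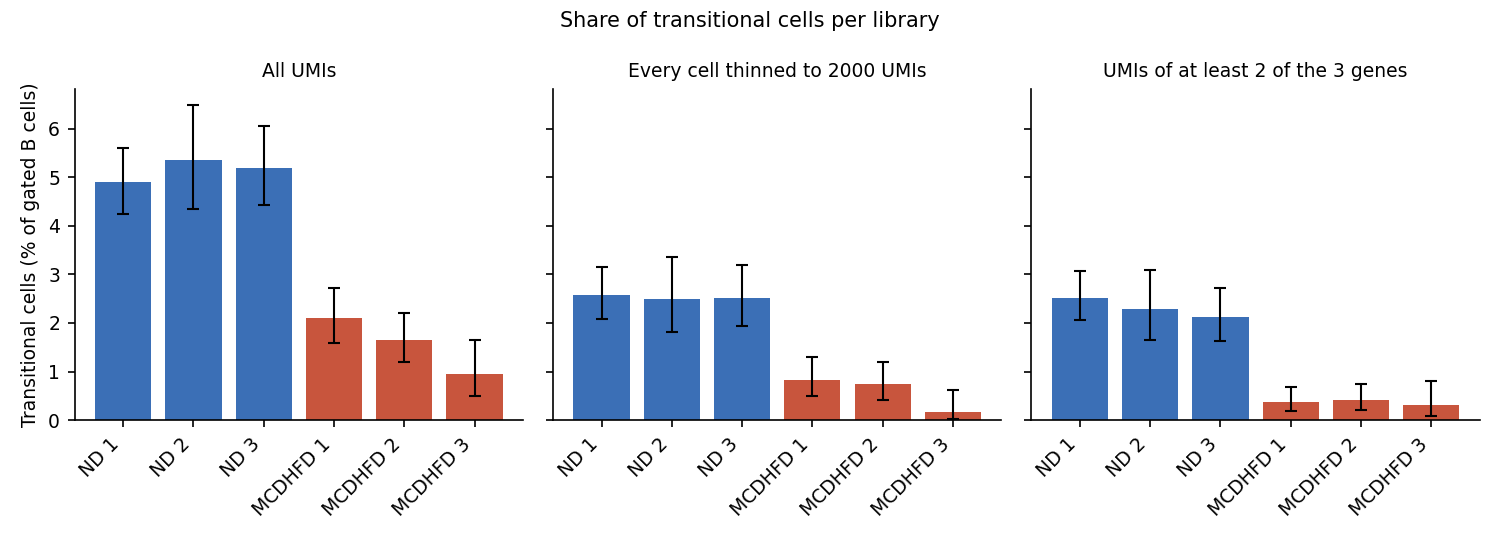
Transitional cells as a percentage of gated B cells in each library (bars; whiskers are exact binomial 95% intervals, counting error only), for all UMIs, for cells thinned to 2000 UMIs and for a gate on at least 2 of the 3 genes. The 3 ND libraries sit above the 3 MCDHFD libraries in each panel; with all UMIs the ND shares lie between 4.9 and 5.35%.

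The 3 gate genes did not carry the same weight in the 2 diets. Cd93 encodes the surface receptor detected by the antibody AA4.1, Akap12 an anchoring protein for protein kinase A, and Cecr2 a bromodomain chromatin remodelling subunit. Cd93 had a UMI in 35, 22 and 26 transitional cells of the ND libraries and in 2, 4 and 4 of the MCDHFD libraries. Cells that passed on Cecr2 alone made up 32, 32.3 and 45.5% of the transitional cells on ND and 71.4, 59.1 and 33.3% on MCDHFD. The first 2 MCDHFD libraries stood above all ND libraries in this share, and the third, with 12 cells, lay within their range. UMIs of at least 2 of the genes were found in 100, 41 and 63 cells on ND and in 10, 11 and 4 cells on MCDHFD. Just inside the threshold, with exactly 2 UMIs, were 81, 51 and 72 cells on ND and 37, 26 and 7 on MCDHFD. Just outside it, with 1 UMI, were 216, 135 and 151 and 75, 81 and 50 cells.

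T cells served as a comparison for the summed gate. Among T cells (at least 2 UMIs of Cd3e and Cd3d, none of Cd79a), 0.746, 0.692 and 1.5% on ND and 0.556, 1.95 and 1.29% on MCDHFD held at least 2 UMIs of the 3 genes. Their median depth was 7451, 5706, 7836, 7928, 8401 and 5688 UMIs in the 6 libraries, against 5169, 4623, 5521, 5674, 5878 and 3582 in gated B cells. All ND shares of transitional cells were above the values of T cells. The shares of MCDHFD replicates 2 and 3 (1.64%, exact 95% interval 1.2 to 2.2%, and 0.947%, 0.49 to 1.65%) were not. In these libraries 0.289 and 0.457% of T cells held a Cecr2 UMI, against 84.1 and 66.7% of transitional cells. The populations thus reached the summed threshold through different genes, so the T cell value cannot decide whether these transitional cells are background.

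Taken gene by gene, Akap12 in all MCDHFD libraries and Cd93 in 2 of them stood at T cell levels in B cells. Akap12 stood at 25.3, 33.6 and 25.7 UMIs per 1000000 UMIs of the population (CPM) in gated B cells on ND and at 9.19, 7.6 and 7.59 on MCDHFD, against 5.1, 6.63, 7.54, 7.49, 9.25 and 12 CPM in T cells. On MCDHFD the B cells were within the range of the T cells for Akap12. Cecr2 stood at 45, 39.9 and 55.3 CPM in gated B cells on ND and at 34.2, 26 and 16.6 on MCDHFD, and at no more than 0.84 CPM in T cells. Cd93 was at 6.45, 9.3 and 5.28 CPM in gated B cells on ND and 2.26, 1.52 and 3.97 on MCDHFD, with 0.34, 1.71, 1.48, 1.26, 1.88 and 2.64 CPM in T cells. The B cells of MCDHFD replicates 1 and 2 were within the T cell range for Cd93. Cecr2 stood far above its T cell level in every library of both diets. Each of the 3 genes was lower in all MCDHFD than in all ND libraries over the whole B cell compartment, with no cell gate on their UMIs.

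The label was checked against Vpreb3 and Cd24a, markers of immature B cells that the gate did not use. Both marked the gated cells in all 3 ND libraries, and neither did in the first 2 MCDHFD libraries. In MCDHFD replicate 3, with 12 cells, Vpreb3 did not mark them either, and a higher Cd24a share rests on 8 cells. As far as these 2 markers go, the cells of MCDHFD are called transitional here by the gate alone. Sox4, also outside the gate, was more frequent in the gated cells of the first 2 MCDHFD libraries than in the comparison B cells described below. Vpreb3 encodes a surrogate light chain-like protein of B cell precursors, and Cd24a the heat-stable antigen CD24. The 2 genes lie on chromosome 10 (mm10), Vpreb3 at chr10:75943057-75949657 and Cd24a at chr10:43578284-43584265, both on the plus strand. The 250 bases before the start of Vpreb3 in RefSeq (GRCm38.p6, chr10:75948050-75948299, plus strand, 5′ to 3′) are shown because the level of this gene differed both between the populations and between the diets below. RefSeq starts this gene further downstream than GENCODE, from which the 2 positions are taken, so the window lies inside the GENCODE span. The capitals mark the only match, on either strand, to the octamer ATTTGCAT (reverse ATGCAAAT), the letters found in immunoglobulin promoters:
Vpreb3 upstream: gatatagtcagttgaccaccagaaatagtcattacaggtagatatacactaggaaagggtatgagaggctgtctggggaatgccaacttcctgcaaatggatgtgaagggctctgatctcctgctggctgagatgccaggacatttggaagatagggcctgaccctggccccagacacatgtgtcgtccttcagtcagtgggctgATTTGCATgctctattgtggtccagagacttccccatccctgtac
The match starts 45 bases before the start site. Of 32851 windows of this length in the table, 1.6% hold the octamer, and the match is a description of letters, not of binding.

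Marker-negative B cells, used here for comparison, are gated B cells with no UMI of Cr2, Bhlhe41, Cd93, Akap12 or Cecr2 (3589 cells). On ND a Vpreb3 UMI was found in 72.7, 77.1 and 70.1% of transitional cells against 51.5, 51.5 and 49.7% of marker-negative cells. On MCDHFD the shares were 46.4, 38.6 and 50% against 43.9, 43.8 and 46.8%, and the ranges of the 2 populations overlapped. T cells had a Vpreb3 UMI in 1.58, 0.138, 2.74, 2.29, 2.38 and 0.533% of cells. Median depth was 5008, 4138, 5142, 5244, 5617 and 7538 UMIs in transitional and 4356, 3768, 4611, 4592, 4904 and 3034 in marker-negative cells. Transitional cells had the higher median in every library. Thinned to 2000 UMIs, Vpreb3 was seen in 56.5, 65.1 and 58.5% of transitional against 36.3, 37.4 and 34.6% of marker-negative cells on ND. In the 18, 16 and 2 thinned transitional cells of the MCDHFD libraries it was seen in 5.56, 31.2 and 50%, against 27.8, 31.2 and 36.3%. Cells with exactly 1 UMI of the gate genes had Vpreb3 in 63.9, 73.3 and 51.7% on ND, between the 2 populations in each library. On MCDHFD they had it in 52, 56.8 and 62%, above both populations in each library. Cr2-positive B cells with no UMI of the 3 gate genes or Bhlhe41 had Vpreb3 in 56, 54.1 and 52.8% on ND and 49.9, 50.7 and 52.9% on MCDHFD. These shares were below those of transitional cells in each ND library and above them in each MCDHFD library.

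Cd24a followed a like pattern. A Cd24a UMI was found in 65.5, 76 and 61.7% of transitional cells on ND and in 43.4, 47.6 and 39.6% of marker-negative cells. On MCDHFD it was found in 25, 36.4 and 66.7% against 27.2, 30.5 and 33.6%, where the high value of replicate 3 rests on 8 of 12 cells. Cr2-positive B cells had a Cd24a UMI in 53.6, 60.3 and 50.4% on ND, below transitional cells. On MCDHFD they had one in 44.7, 42.6 and 48%, above transitional cells in replicates 1 and 2. Rag1, which encodes a subunit of the V(D)J recombinase and is turned off as B cells mature, had a UMI in 7, 3 and 4 transitional cells of the ND libraries (3.61, 3.12 and 2.6%) and in 1 of 2058 marker-negative cells on ND. Over the pooled ND transitional cells the share was 3.15% (14 of 444). None of the 112 transitional cells on MCDHFD held one. The exact binomial intervals reached 6.38, 8.04 and 26.5% in MCDHFD replicates 1, 2 and 3, counting error only. These limits lay above the share of every ND library, so the counts cannot decide whether the Rag1 share was lower on MCDHFD. T cells held a Rag1 UMI in 1 library, in 0.138% of cells. Sox4, a transcription factor of early lymphocytes, was seen in 17, 10.4 and 14.9% on ND and 8.93, 6.82 and 0% on MCDHFD, against 6.43, 5.12, 4.49, 2.29, 2.31 and 2.82% of T cells. In marker-negative cells it was seen in 5, 3.31 and 5.66% on ND and 1.65, 0.952 and 0.768% on MCDHFD. Transitional cells had the higher share in every library but MCDHFD replicate 3. The values of MCDHFD replicates 1 and 2 rest on 5 and 3 cells. The MCDHFD values of Sox4 in transitional cells were below all ND values.

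**Figure D2:**
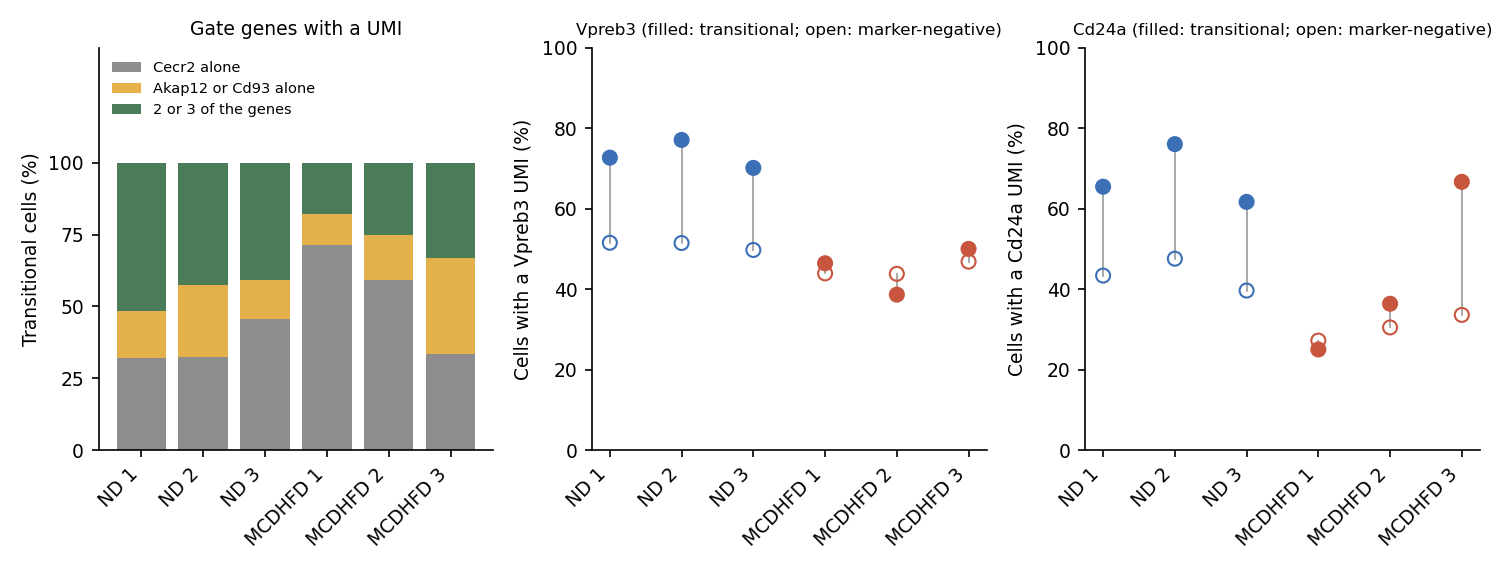
Left, percentage of transitional cells in each library that passed the gate on Cecr2 alone, on Akap12 or Cd93 alone, or with UMIs of 2 or 3 of the genes. Middle and right, percentage of cells with a Vpreb3 or Cd24a UMI in transitional (filled) and marker-negative B cells (open); ND in blue, MCDHFD in red. Vpreb3 was at 72.7, 77.1 and 70.1% in transitional cells of the ND libraries and level with marker-negative cells on MCDHFD.

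A few very deep or Jchain-rich cells held a large part of the transitional UMIs. Cells with over 20000 UMIs, or with at least 0.5% of their UMIs from Jchain, the joining chain of plasma cell immunoglobulin, numbered 16, 5 and 4 on ND and 2, 3 and 5 on MCDHFD, 35 in all. They supplied 38.4, 23.7, 16.3, 11.1, 22.4 and 87.7% of the UMIs of transitional cells in the 6 libraries, and the highest value is that of MCDHFD replicate 3. In marker-negative cells such cells supplied 17.8, 9.73, 7.68, 12.1, 10.5 and 13%. The summed level of 10 plasma cell genes was 7180.4, 6571, 3895, 3688, 5903 and 30935 CPM in transitional cells. The gene comparisons were therefore made over all 556 cells and again over the 521 that remain without these cells. The second setting was chosen after the data were seen. In it MCDHFD replicate 3 keeps 7 cells and 32264 UMIs, where 1 UMI is worth 31 CPM, against 1.06 to 4.05 in the other libraries. Without these cells the share of transitional cells was 4.62, 5.21 and 5.16% on ND and 2.05, 1.56 and 0.568% on MCDHFD, again without overlap.

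Transitional cells were compared with marker-negative B cells of the same libraries. The gene lists used from here on were chosen with earlier results of these data known, so their counts are descriptive. Without deep and Jchain-rich cells, 8 of 14 measured early B cell genes were higher and 8 of 24 antigen presentation genes lower in transitional cells (2.33% of all genes tested were higher and 3.08% lower), while over all cells no gene of either list passed. Over all cells the edgeR quasi-likelihood test with Benjamini-Hochberg adjustment called 86 of 9015 genes (0.954%), 56 higher and 30 lower; with upper-quartile scaling the split was 36 and 32, and with DESeq2 97 and 81 (2.01% in all). Leaving out 1 library moved this count from 0 without ND replicate 2, 9 without ND replicate 1, 12 without ND replicate 3 and 37 without MCDHFD replicate 2 to 296 without MCDHFD replicate 3. Without deep and Jchain-rich cells it called 455 of 8399 (5.42%), 196 higher and 259 lower, and 57 of the first 86 were among them, in the same direction. That count was 287 without ND replicate 1 and 304 without ND replicate 3, and 453 to 467 without any other library. Serinc5, a membrane protein that limits retroviral infectivity, was among the most raised. Its level was 186, 87.1 and 164 CPM in transitional cells on ND and 58, 56.7 and 62 on MCDHFD without these cells, against 26.7, 25.7 and 22.5 and 17.8, 16.6 and 14.2 CPM in marker-negative cells. No library overlapped between the populations, and the log2 fold change was 2.24 ± 0.17 log2 units (SE; edgeR adjusted p = 3.66e-16), with 1.84 ± 0.21 log2 units (SE; edgeR adjusted p = 0.00889) over all cells. Agbl1, which encodes a cytosolic carboxypeptidase, had the smallest p without these cells and is named after its values were seen. It was at 1056, 251 and 1175 CPM on ND and 389.9, 109 and 0 on MCDHFD against 166, 58.2 and 152 and 39.7, 91.3 and 3.1 in marker-negative cells, higher in every library but MCDHFD replicate 3, where it had no UMI (log2 fold change 2.34 ± 0.15 SE, edgeR adjusted p = 1.59e-18).

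Of 14 measured early B cell genes (of 21 listed apart from the gate genes), 8 were higher in transitional cells without deep and Jchain-rich cells (background 2.33%) and none lower, with a median log2 fold change of 0.53 against -0.01 over all genes tested. Over all cells none of 15 passed the test. The 8 were Myb, Lef1, Tifa, Sox4, Bach2, Cd24a, Spib and Vpreb3. Myb, a transcription factor of progenitors, rose by 2.19 ± 0.30 log2 units (SE; edgeR adjusted p = 1.48e-07), with 47.8, 26.1 and 37.2 CPM on ND and 19.3, 8.11 and 0 on MCDHFD against 5.03, 13.3 and 6.09 and 3.56, 2.7 and 3.1. Lef1, a Wnt pathway factor of developing lymphocytes, was at 52, 41.4 and 68.2 CPM on ND against 13, 20.7 and 19.4 in marker-negative cells, a change of 1.41 ± 0.21 log2 units (SE; edgeR adjusted p = 1.68e-06). Bach2, which holds back plasma cell differentiation, was at 2871, 1368 and 2482 CPM on ND and 2082, 2233 and 744 on MCDHFD, above its marker-negative level in every library (log2 fold change 0.51 ± 0.09 SE, edgeR adjusted p = 4.75e-05). Over all cells Bach2 differed by 0.19 ± 0.27 log2 units (SE; edgeR adjusted p = 0.869). Vpreb3 rose by 0.55 ± 0.12 log2 units (SE; edgeR adjusted p = 9.08e-04) and was 0.34 without ND replicate 1 (edgeR adjusted p = 0.142).

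Among 40 measured B cell transcription factors, 10 were higher and none lower without deep and Jchain-rich cells (median 0.16, with 2.33% of all genes tested higher). Zeb2, a zinc finger repressor, was at 531, 198 and 547 CPM on ND and 219, 328 and 124 on MCDHFD against 187, 129 and 206 and 190.3, 129 and 47.7 in marker-negative cells, higher in all 6 libraries (log2 fold change 0.98 ± 0.11 SE, edgeR adjusted p = 2.10e-09). Egr1, an immediate early gene downstream of the B cell receptor, rose by 1.52 ± 0.27 log2 units (SE; edgeR adjusted p = 4.70e-05). E2f2, a factor of cell cycle genes, rose by 1.24 ± 0.18 log2 units (SE; edgeR adjusted p = 5.95e-07), and Ezh2, the histone H3 lysine methyltransferase of Polycomb, by 0.75 ± 0.17 log2 units (SE; edgeR adjusted p = 0.00119). Fhit, a nucleotide hydrolase, and Mctp2, a C2-domain membrane protein, passed the test in both settings, with log2 fold changes without deep and Jchain-rich cells of 1.14 and 1.38. Top2a and Mki67, genes of dividing cells, were higher over all cells (2.21 ± 0.37 log2 units (SE; edgeR adjusted p = 0.0272) and 2.33 ± 0.46 log2 units (SE; edgeR adjusted p = 0.0413)) and were too low to be tested once the deep cells were left out. Eaf2, an elongation factor-associated gene, was higher in both settings, by 1.51 over all cells and 1.47 without the deep cells. Creld2, a chaperone of the secretory pathway, rose by 0.91 ± 0.18 log2 units (SE; edgeR adjusted p = 0.0413) over all cells and stood at 0.07 ± 0.31 log2 units (SE; edgeR adjusted p = 0.953) without them.

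Of 19 measured genes of mature B cells, 9 fell and none rose without deep and Jchain-rich cells (median -0.37; 3.08% of all genes fell); over all cells 2 fell, Ccr6 and Fcer2a. Of 24 measured antigen presentation genes, 8 fell and none rose (median -0.27), and none passed over all cells. H2-Ab1, a class II chain, was at 1454, 1969 and 1554 CPM on ND against 2501, 2764 and 2330.3 in marker-negative cells, and at 1621, 1702 and 2851 on MCDHFD against 2039.9, 1973 and 3189. It was lower in all 6 libraries (log2 fold change -0.61 ± 0.08 SE, edgeR adjusted p = 2.43e-07), as were its partner H2-Aa (-0.71), H2-Eb1 (-0.65) and Cd74, the invariant chain (-0.55). Ccr6, a chemokine receptor of mature B cells, fell by 1.60 ± 0.23 log2 units (SE; edgeR adjusted p = 5.09e-07), and Gpr183, the oxysterol receptor that places B cells in the follicle, fell by 0.92 ± 0.12 log2 units (SE; edgeR adjusted p = 1.22e-08). Both also passed over all cells, Ccr6 at -1.77 and Gpr183 at -1.13. Fcer2a, which encodes CD23, fell by 0.64 ± 0.11 log2 units (SE; edgeR adjusted p = 1.24e-05), and Cd83, an activation marker, fell by 0.68 ± 0.13 log2 units (SE; edgeR adjusted p = 2.21e-04). Nfatc2, a calcium-dependent transcription factor, fell by 1.53 ± 0.30 log2 units (SE; edgeR adjusted p = 2.01e-04), and Gimap4, a GTPase of lymphocytes, fell by 1.06 ± 0.12 log2 units (SE; edgeR adjusted p = 6.43e-10). S100a6, a calcium-binding protein abundant in B-1 cells, fell by 1.12 ± 0.15 log2 units (SE; edgeR adjusted p = 6.70e-08).

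Neutrophil transcripts were also lower in transitional than in marker-negative cells. Without deep and Jchain-rich cells, 3.08% of all genes tested fell. Among 7 measured neutrophil genes, 6 fell, led by S100a8 (log2 fold change -2.79 ± 0.25 SE, edgeR adjusted p = 2.12e-13) and S100a9 (log2 fold change -2.43 ± 0.23 SE, edgeR adjusted p = 1.08e-12), which encode calprotectin. The summed level of the 10 neutrophil genes ran from 7.63 to 1389 CPM in transitional and from 274 to 13898 CPM in marker-negative cells, and between 0 and 8 of the 10 genes had no UMI in transitional cells of a library. Of 4 measured myeloid genes 2 fell, and 1 of the 4 had a positive sign. Lyz2 fell by 2.92 ± 0.27 log2 units (SE; edgeR adjusted p = 1.24e-12) and Apoe fell by 1.19 ± 0.13 log2 units (SE; edgeR adjusted p = 1.63e-10). Over all cells 2 of 5 fell. The part of such RNA in the other differences was not tested.

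The contrast was also fitted within each diet, over all cells. In ND alone 382 of 9368 genes passed (4.08%), and in MCDHFD alone 1 of 8200, the immunoglobulin gene Ighg2b (0.0122%; 253 at an unadjusted p under 0.05), with 112 cells against 444. Vpreb3 was at 705, 523 and 509.8 CPM in transitional cells on ND without deep and Jchain-rich cells and at 206, 199 and 124 on MCDHFD. In marker-negative cells it was at 284, 314 and 276 and 188, 190.3 and 259 CPM. Over all cells the log2 fold change of Vpreb3 between the populations was 0.75 ± 0.13 log2 units (SE; edgeR adjusted p = 0.00854) in ND and -0.24 ± 0.31 log2 units (SE; edgeR adjusted p = 1) in MCDHFD. For Cd24a it was 0.87 ± 0.13 log2 units (SE; edgeR adjusted p = 0.00395) in ND and 0.19 ± 0.39 log2 units (SE; edgeR adjusted p = 1) in MCDHFD. The difference between the diets was tested in the fit of both populations described after the diet effects.

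**Figure D3:**
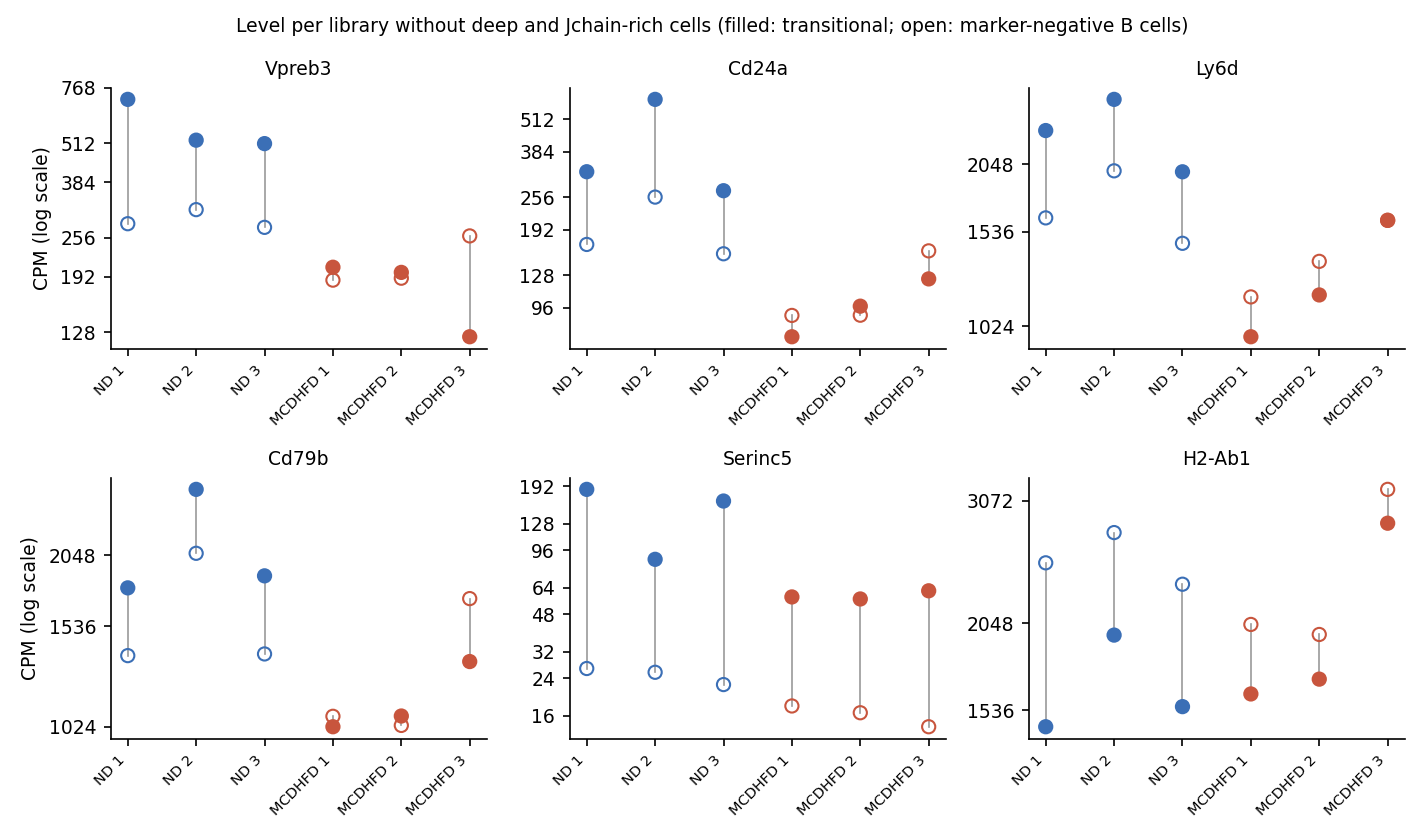
Level in each library (CPM, log scale) of 6 genes in transitional (filled) and marker-negative B cells (open), without deep and Jchain-rich cells; ND in blue, MCDHFD in red. The 3 ND libraries have Vpreb3 at 705, 523 and 509.8 CPM in transitional cells, while Serinc5 is higher and H2-Ab1 lower in transitional cells of every library.

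Between the diets, no gene passed the test over all transitional cells, while without deep and Jchain-rich cells 9 early B cell genes, Vpreb3 and Cd24a among them, were lower on MCDHFD and Fkbp5 was higher. The gated cells differed in make-up between the diets, with 71.4 and 59.1% passing on Cecr2 alone in MCDHFD replicates 1 and 2 against 32 to 45.5% on ND. A change in which cells pass the gate and a change of expression within them cannot be told apart in the diet comparisons. Over all cells edgeR called 0 of 5903 genes (0%; 334 at an unadjusted p under 0.05), and DESeq2 called 15 of 5559 (0.27%). Leaving out 1 library gave 276 without ND replicate 2 and 197 without MCDHFD replicate 3, the 2 filtered libraries, and 0 to 4 otherwise. The 5 genes with the smallest p were Fam129c (log2 fold change -2.63 ± 0.36 SE, edgeR adjusted p = 0.163), St8sia6 (1.79), Wfdc21 (-3.56), Fkbp5 (2.83) and Lmo4 (-1.79). In simulated counts for this comparison, 200 of 5903 genes were changed by 1 on the log2 scale. With 1 dispersion for all genes, 6% of the 200 were recovered. Without deep and Jchain-rich cells edgeR called 204 of 5470 genes (3.73%), 69 higher (1.26%) and 135 lower on MCDHFD. Of these, 191 were also called, all in the same direction, in the 4 unfiltered libraries alone, where 326 of 6629 passed (4.92%). Those libraries were also in the first fit and held most of its cells, so the overlap is not an independent check. With 1 library left out in turn, between 51 and 365 genes passed, with 51 without ND replicate 1, 70 without MCDHFD replicate 1, 85 without ND replicate 3, 341 without MCDHFD replicate 3 and 365 without ND replicate 2.

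Without deep and Jchain-rich cells, 9 of 14 measured early B cell genes fell on MCDHFD and none rose, with a median log2 fold change of -1.05 against -0.01 over all genes tested, where 2.47% were called lower. None passed over all cells, where the median was -1.20. This list was chosen with earlier results of these data known, so its count describes the members and is no independent test. Vpreb3, at 705, 523 and 509.8 CPM on ND and 206, 199 and 124 on MCDHFD, did not overlap between the diets. Its log2 fold change was -1.73 ± 0.20 log2 units (SE; edgeR adjusted p = 4.53e-07), and with each library left out it ran from -1.93 to -1.50 and passed each time. Over all cells, with 495, 452 and 435 CPM on ND and 183, 154 and 95.3 on MCDHFD, it was -1.55 ± 0.29 log2 units (SE; edgeR adjusted p = 0.34). Cd24a was at 322, 612 and 272 CPM on ND and 74.1, 97.3 and 124 on MCDHFD, also without overlap. It fell by 1.98 ± 0.23 log2 units (SE; edgeR adjusted p = 4.53e-07) and also passed each time (-2.23 to -1.86).

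Cd79b, the signalling partner of Cd79a in the B cell receptor, was at 1794, 2668 and 1883 CPM on ND and 1025, 1069.96 and 1333 on MCDHFD (log2 fold change -0.98 ± 0.14 SE, edgeR adjusted p = 1.79e-05). Plac8, a cysteine-rich protein of immature and B-1 cells, was at 634, 786 and 630.1 and 354, 357 and 93 CPM (log2 fold change -1.13 ± 0.20 SE, edgeR adjusted p = 3.36e-04). Cd79b, Plac8 and Ighm passed with each library left out. Tifa, an adaptor of NF-kB signalling, Spib, an ETS factor, Bach2 and Cd38, an ectoenzyme, fell too, with log2 fold changes of -1.86, -0.87, -0.52 and -0.75. These calls were lost with 1 library left out. Tifa was -1.39 without ND replicate 1 (edgeR adjusted p = 0.373) and -1.22 without MCDHFD replicate 1 (edgeR adjusted p = 0.371). Spib was -0.85 without ND replicate 1 (edgeR adjusted p = 0.229), -1.0 without ND replicate 3 (edgeR adjusted p = 0.0657) and -0.82 without MCDHFD replicate 1 (edgeR adjusted p = 0.166). Bach2 was -0.46 without ND replicate 1 (edgeR adjusted p = 0.342), -0.65 without ND replicate 3 (edgeR adjusted p = 0.0763) and -0.55 without MCDHFD replicate 1 (edgeR adjusted p = 0.132). Cd38 was -0.69 without ND replicate 1 (edgeR adjusted p = 0.333), -0.72 without ND replicate 3 (edgeR adjusted p = 0.245), -0.59 without MCDHFD replicate 1 (edgeR adjusted p = 0.399) and -0.92 without MCDHFD replicate 2 (edgeR adjusted p = 0.0588). Sox4 was at 56.3, 28.3 and 37.2 CPM on ND and 16.1, 24.3 and 0 on MCDHFD and did not pass (log2 fold change -1.40 ± 0.47 SE, edgeR adjusted p = 0.0955). Ighm, the heavy chain of IgM, had the opposite sign over all cells, without passing. With the Jchain-rich cells included it was at 5712, 4759 and 4600.3 CPM on ND and 16733, 32149.8 and 12928 on MCDHFD (log2 fold change 2.17 ± 0.33 SE, edgeR adjusted p = 0.171), and without them at 3703, 2098 and 3653 and 2642, 2833 and 527 (log2 fold change -0.79 ± 0.17 SE, edgeR adjusted p = 0.00435). Ly6d, a surface protein of the B lineage, was at 2366, 2703 and 1983 CPM on ND and 979.6, 1171 and 1612 on MCDHFD and fell by 1.08 ± 0.15 log2 units (SE; edgeR adjusted p = 7.08e-06). Cd72, an inhibitory co-receptor, fell by 1.55 ± 0.25 log2 units (SE; edgeR adjusted p = 1.26e-04).

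Outside this list, further genes fell without deep and Jchain-rich cells. Fam129c, a B cell protein of unclear function, was at 108, 183 and 103 CPM on ND and 22.6, 12.2 and 93 on MCDHFD (log2 fold change -2.38 ± 0.37 SE, edgeR adjusted p = 5.82e-05). Lmo4, a LIM-only transcription cofactor, was at 178, 179 and 128 and 48.3, 40.5 and 62 CPM (log2 fold change -1.85 ± 0.30 SE, edgeR adjusted p = 1.12e-04). Ccnd2, the cyclin of B cell proliferation, was at 73.2, 179 and 88.1 and 29, 8.11 and 0 CPM (log2 fold change -2.32 ± 0.42 SE, edgeR adjusted p = 4.58e-04). The diets did not overlap for any of the 3, but for Fam129c MCDHFD replicate 3 lay below ND replicate 3 by less than the worth of 1 UMI, 31 CPM in that library of 7 cells. Nedd4, a ubiquitin ligase, fell by 2.76 ± 0.44 log2 units (SE; edgeR adjusted p = 1.05e-04). Hmgb2, a chromatin protein of dividing cells, fell by 1.39 ± 0.29 log2 units (SE; edgeR adjusted p = 0.00261), and was -0.71 without ND replicate 1 (edgeR adjusted p = 0.334). Wfdc21, a secreted protein of the whey acidic protein family, was at 94.5, 105 and 199.7 and 6.45, 24.3 and 0 CPM (log2 fold change -3.47 ± 0.47 SE, edgeR adjusted p = 7.08e-06). Wfdc21 moved with S100a8 and S100a9, the 2 measured neutrophil genes, which also fell, and its source was not tested. Zeb2 fell by 1.07 ± 0.20 log2 units (SE; edgeR adjusted p = 7.57e-04), and was -0.81 without MCDHFD replicate 1 (edgeR adjusted p = 0.0876). Agbl1, again named after its values were seen, fell by 2.26 ± 0.25 log2 units (SE; edgeR adjusted p = 2.12e-07) and passed with each library left out.

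Among the genes that rose was Fkbp5, a co-chaperone induced by glucocorticoids. It was at 25.5, 19.6 and 22.3 CPM on ND and 113, 349 and 31 on MCDHFD (log2 fold change 2.94 ± 0.37 SE, edgeR adjusted p = 1.58e-06). The MCDHFD libraries differed widely among themselves and each lay above the ND libraries, replicate 3 by no more than the worth of 1 UMI. All gated B cells showed the same order, at 31.8, 17.3 and 38.2 and 115, 245 and 64.5 CPM (log2 fold change 2.23 ± 0.27 SE, edgeR adjusted p = 0.00902). Ahnak, a scaffold protein, was at 32.9, 67.5 and 69.5 CPM on ND and 180.4, 182 and 124 on MCDHFD (log2 fold change 1.62 ± 0.28 SE, edgeR adjusted p = 2.63e-04), and S100a6 at 60.5, 43.6 and 9.92 and 216, 126 and 62 (log2 fold change 1.97 ± 0.37 SE, edgeR adjusted p = 9.58e-04). Both are on the list of B-1 genes, of which 2 of 3 measured members rose, with 1.26% of all genes tested called higher. S100a6 was 1.48 without MCDHFD replicate 1 (edgeR adjusted p = 0.137). Slc7a1, the cationic amino acid transporter, was at 19.1, 26.1 and 26 and 87, 85.1 and 93 CPM (log2 fold change 1.81 ± 0.35 SE, edgeR adjusted p = 0.00102). Abca1, the cholesterol exporter, was at 50.9, 67.5 and 83.1 and 255, 170.2 and 93 CPM (log2 fold change 1.47 ± 0.26 SE, edgeR adjusted p = 3.57e-04). Neither overlapped between the diets, but for Abca1 MCDHFD replicate 3 lay above ND replicate 3 by less than the worth of 1 UMI. Slc7a1 was 1.66 without ND replicate 1 (edgeR adjusted p = 0.059), and Abca1 was 1.18 without ND replicate 1 (edgeR adjusted p = 0.0576) and 1.12 without MCDHFD replicate 1 (edgeR adjusted p = 0.0901). Lncpint, a long noncoding RNA, rose by 1.51 ± 0.21 log2 units (SE; edgeR adjusted p = 1.26e-05). Atxn1, a transcriptional repressor, rose by 2.29 ± 0.38 log2 units (SE; edgeR adjusted p = 1.44e-04), and was 1.03 without MCDHFD replicate 1 (edgeR adjusted p = 0.42). Fkbp5, Ahnak and Lncpint passed with each library left out.

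Few genes of the other lists passed without deep and Jchain-rich cells. Of 21 measured type I interferon genes, 2, Phf11b and Ifi27l2a, fell and none rose (median -0.47). Of all genes tested in this setting, 1.26% were called higher and 2.47% lower. Ifi27l2a was at 863, 1609.8 and 748 CPM on ND and 290, 438 and 93 on MCDHFD (log2 fold change -1.57 ± 0.22 SE, edgeR adjusted p = 1.47e-05). In all gated B cells, where 414 of 13158 genes passed (3.15%; 1.29% higher and 1.85% lower), 9 of 41 fell, Ifi27l2a among them (log2 fold change -1.71 ± 0.21 SE, edgeR adjusted p = 0.00902). Of 10 measured glucocorticoid response genes, Fkbp5 rose and 1, Btg1, fell. Of 37 oxidative phosphorylation genes, 4 fell, with 36 of negative sign and a median of -0.46. No gene passed among 14 of one-carbon, methionine and choline metabolism, 7 of sterol and fatty acid synthesis, 7 of the integrated stress response or 9 heat shock genes. Of 16 genes of the BAFF and survival list 1, Mcl1, fell and none rose. Of 37 B cell transcription factors 4 fell (Zeb2, Klf2, Spib and Bach2) and 1, Myc, rose.

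**Figure D4:**
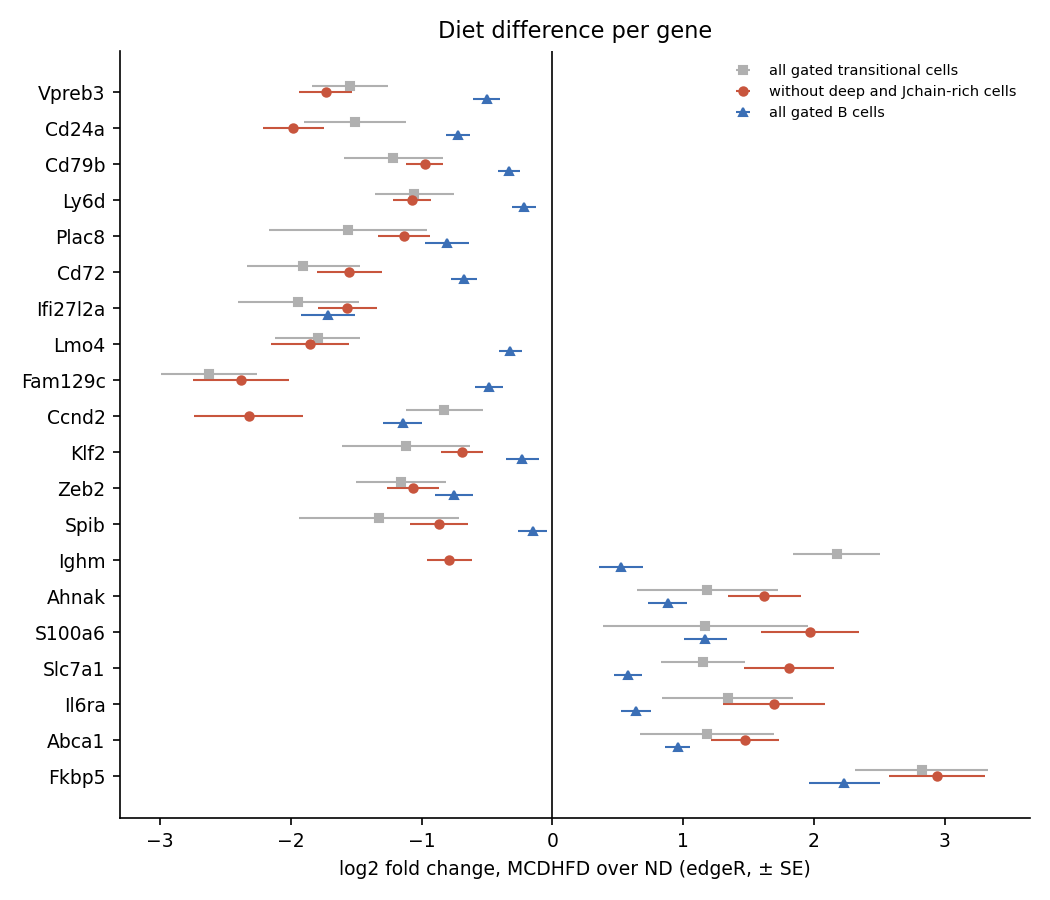
Log2 fold change, MCDHFD over ND, with its standard error for 20 genes in all gated transitional cells (grey squares), transitional cells without deep and Jchain-rich cells (red circles) and all gated B cells (blue triangles). Vpreb3, Cd24a and Lmo4 have lower fold changes in transitional cells than in all B cells, and Ighm changes sign between the first 2 settings.

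Whether the diet effect differed between transitional and marker-negative cells was tested directly. Over all cells 6 of 10001 genes passed (0.06%), all of them variable segments of immunoglobulin genes, whose counts follow single clones. Leaving out 1 library raised this count to between 9 and 35. DESeq2 called 0 (0%), with 136 genes at an unadjusted p under 0.05. Without deep and Jchain-rich cells 59 of 9320 passed (0.633%), 13 higher (0.139%) and 46 lower (0.494%). The count was 23 without ND replicate 1, 26 without ND replicate 2, 36 without ND replicate 3 and 36 without MCDHFD replicate 3. For Vpreb3 the difference, transitional minus marker-negative, was -1.13 ± 0.20 log2 units (SE; edgeR adjusted p = 1.57e-05), past the threshold in 5 of the 6 fits with 1 library left out. Without ND replicate 1 it was -1.02 (edgeR adjusted p = 0.0671). Over all cells the difference for Vpreb3 was -1.07 ± 0.28 log2 units (SE; edgeR adjusted p = 0.635). For Cd24a it was -1.12 ± 0.25 log2 units (SE; edgeR adjusted p = 0.00303), and -1.13 without ND replicate 1 (edgeR adjusted p = 0.1), -0.96 without ND replicate 2 (edgeR adjusted p = 0.115) and -0.98 without MCDHFD replicate 3 (edgeR adjusted p = 0.0528). For Ly6d the difference was -0.76 ± 0.14 log2 units (SE; edgeR adjusted p = 2.10e-05), and -0.74 without ND replicate 1 (edgeR adjusted p = 0.0699). For Cd79b it was -0.59 ± 0.14 log2 units (SE; edgeR adjusted p = 0.00475), and -0.70 without ND replicate 1 (edgeR adjusted p = 0.135) and -0.66 without ND replicate 3 (edgeR adjusted p = 0.104). For Ighm it was -0.64 ± 0.13 log2 units (SE; edgeR adjusted p = 7.47e-04) and passed each time, while over all cells its sign was positive, at 1.46.

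Sox5, an HMG-box transcription factor seen in atypical and anergic B cells, had the smallest p outside the immunoglobulin and neutrophil genes. In transitional cells it was at 96.6, 76.2 and 206 CPM on ND and 90.2, 60.8 and 0 on MCDHFD, and in marker-negative cells at 46.4, 19.7 and 46.5 and 120.3, 99 and 23.5. The difference of the diet effects was -2.20 ± 0.30 log2 units (SE; edgeR adjusted p = 9.50e-10) and passed with every library left out. Its ND values in transitional cells were all above those of marker-negative cells, and its MCDHFD values in replicates 1 and 2 were below them, library by library. In MCDHFD replicate 3 the 7 transitional cells held no Sox5 UMI, where 1 UMI is worth more than the level in marker-negative cells, so a lower level was not detectable there. For Tnik, a kinase of Wnt and JNK signalling, the difference was positive. Tnik was at 10.6, 2.18 and 21.1 CPM on ND and 122, 60.8 and 0 on MCDHFD in transitional cells and at 46.2, 16.8 and 44.9 and 72.2, 51.6 and 13.6 in marker-negative cells. The difference was 2.09 ± 0.42 log2 units (SE; edgeR adjusted p = 3.41e-04), and 1.61 without ND replicate 1 (edgeR adjusted p = 0.456) and 1.68 without MCDHFD replicate 1 (edgeR adjusted p = 0.273). For Lmo4 it was -1.61 ± 0.34 log2 units (SE; edgeR adjusted p = 7.96e-04), and -1.25 without ND replicate 1 (edgeR adjusted p = 0.417). Ltf, a neutrophil granule gene, was also among the genes with the smallest p, and is given no fold because 4 of its transitional sums held no UMI. Among 9 measured neutrophil genes 6 passed with a negative difference, against 0.494% of all genes tested. For S100a9 the difference was -3.27 ± 0.27 log2 units (SE, edgeR adjusted p = 3.19e-29). The summed neutrophil level beside it was 1389, 213, 291, 91.6, 101 and 7.63 CPM in transitional and 7725, 13898, 274, 2649, 977 and 1834 CPM in marker-negative cells of all gated cells, and its part in the differences was not tested.

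Within the transitional cells, CD23 marks the later stages, of which the gate keeps only cells without a Cr2 UMI. A UMI of Fcer2a, its gene, was found in 38.1, 38.5 and 43.5% of transitional cells on ND and 41.1, 59.1 and 58.3% on MCDHFD. The means were 40.1% ± 2.99 and 52.8% ± 10.2 (SD, n = 3 each), with an exact two-sided permutation p of 0.2, and the ranges overlapped. T cells held a Fcer2a UMI in 1.86, 0.138, 2.24, 2.01, 2.38 and 0.381%. Marker-negative cells held one in 59.9, 59.3 and 61.8% on ND, above all ND transitional values, and in 51.8, 48.4 and 51.4% on MCDHFD, where the 2 populations overlapped.

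Fcer2a-positive transitional cells were compared with Fcer2a-negative cells of the same library. Over all cells, 7 of 15 measured mature B cell genes were higher in the positive cells and none lower, and of 10 early B cell genes 3 were lower and 1 higher. Over all cells 249 of 3274 genes passed (7.61%), 94 higher and 155 lower. The count was 26 without ND replicate 1, 103 without ND replicate 2, 140 without ND replicate 3 and 380 without MCDHFD replicate 3. The split was 189 and 213 with DESeq2 (12.3% in all). The lower genes were led by plasma cell and secretory genes, with log2 fold changes of -3.59 for Creld2, -2.55 for Xbp1, the plasma cell transcription factor, -2.52 for Mzb1, a chaperone of IgM assembly, and -2.32 for Stmn1, a gene of dividing cells. Without them and without MCDHFD replicate 3, which kept no Fcer2a-negative cell, 128 of 3656 passed (3.5%), 64 each way (1.75%), and 6 of 11 early B cell genes fell and 1 rose.

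In these 5 libraries Vpreb3 was at 432, 305, 337, 72.9 and 60 CPM in Fcer2a-positive against 885, 696, 656, 312 and 487 in Fcer2a-negative cells. It was lower in the positive cells of every library (log2 fold change -1.32 ± 0.15 SE, edgeR adjusted p = 3.96e-16), in both diets. Cd24a was at 189, 403, 173, 21.9 and 90 CPM in Fcer2a-positive against 409, 779, 356, 115 and 112 in Fcer2a-negative cells (log2 fold change -1.05 ± 0.17 SE, edgeR adjusted p = 9.37e-08). Sox5 was at 16, 19.7, 64.8, 14.6 and 54 CPM in Fcer2a-positive against 149.9, 121, 326, 150.1 and 75 in Fcer2a-negative cells (log2 fold change -2.40 ± 0.25 SE, edgeR adjusted p = 1.50e-18), and Serinc5 fell by 1.75 ± 0.23 log2 units (SE; edgeR adjusted p = 6.50e-12). S100a6, Pafah1b3, a platelet-activating factor hydrolase subunit, Pdzd2, a PDZ domain protein, and Marcks, a substrate of protein kinase C, fell with log2 fold changes of -1.68, -1.55, -1.80 and -1.14. Fam129c fell by 1.19 ± 0.24 log2 units (SE; edgeR adjusted p = 6.73e-05). Ighm fell by 0.54 ± 0.10 log2 units (SE; edgeR adjusted p = 8.88e-06) and Ighd, the heavy chain of IgD, rose by 0.73 ± 0.12 log2 units (SE; edgeR adjusted p = 2.11e-07).

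Bcl2, the survival protein, was at 352, 226, 432, 474 and 539.9 CPM in Fcer2a-positive against 143, 109.5, 213, 346 and 175 in Fcer2a-negative cells. It was higher in the positive cells of all 5 libraries (log2 fold change 1.04 ± 0.16 SE, edgeR adjusted p = 1.60e-08). Stat4, the transducer of interleukin-12 signals, rose by 1.38 ± 0.23 log2 units (SE; edgeR adjusted p = 7.76e-07), and Gpr174, a lysophosphatidylserine receptor, by 1.71 ± 0.28 log2 units (SE; edgeR adjusted p = 1.98e-07). Of 17 measured mature B cell genes 5 rose and none fell (median 0.35), and of 23 antigen presentation genes 4 rose and none fell. Among all genes tested, 1.75% rose. H2-Oa, a class II chaperone, rose by 0.90 ± 0.20 log2 units (SE; edgeR adjusted p = 5.04e-04). Ms4a4c, a tetraspan membrane protein, Stap1, a B cell receptor adaptor, Lamb3, a laminin chain, and Smad7, an inhibitor of TGF-beta signalling, rose by 0.84, 0.99, 1.13 and 0.93 log2 units. Ccr7, the lymph node homing receptor, rose over all cells (log2 fold change 1.23 ± 0.31 SE, edgeR adjusted p = 0.0245) and stood at 0.62 ± 0.21 log2 units (SE; edgeR adjusted p = 0.0735) without the deep cells.

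**Figure D5:**
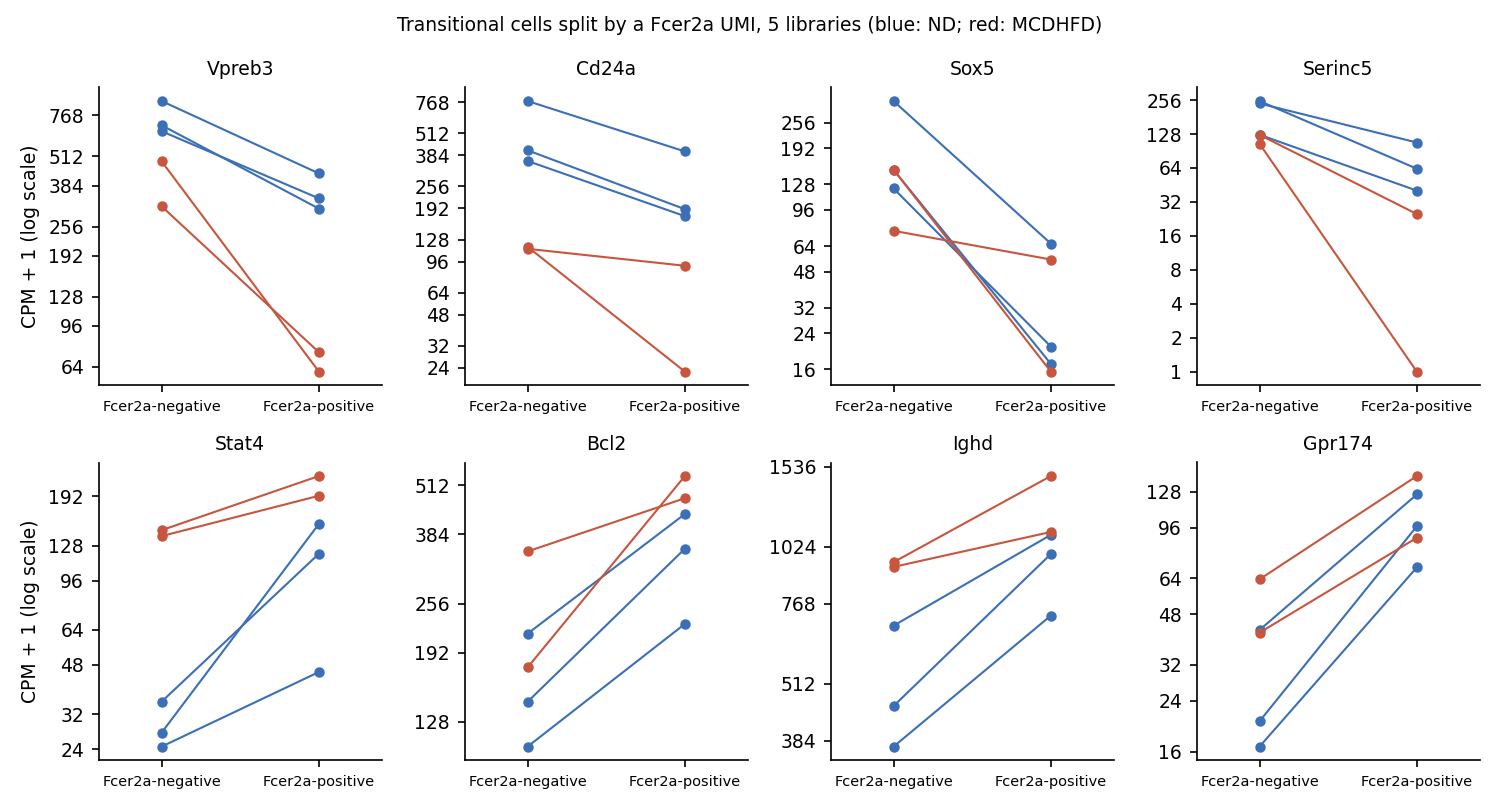
Level (CPM + 1, log scale) of 8 genes in Fcer2a-negative and Fcer2a-positive transitional cells of 5 libraries without deep and Jchain-rich cells (each line is a library; ND blue, MCDHFD red). Vpreb3, Cd24a, Sox5 and Serinc5 are lower and Stat4, Bcl2, Ighd and Gpr174 higher in the positive cells of each library.

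Cycling cells, with a UMI of Mki67 or Top2a, made up 9.79, 8.33 and 3.25% of transitional cells on ND and 8.93, 6.82 and 16.7% on MCDHFD. The means were 7.12% ± 3.44 and 10.8% ± 5.19 (SD, n = 3 each; exact two-sided permutation p = 0.5). Without deep and Jchain-rich cells they were 4.37% and 2.66%, with 18 of 419 cells on ND and 4 of 102 on MCDHFD, so the order of the diets changed. Cells with more Iglc1, Iglc2 and Iglc3 than Igkc UMIs, a lambda light chain count, made up 28.4, 91.7 and 31.8% on ND and 16.1, 11.4 and 58.3% on MCDHFD (exact two-sided permutation p = 0.5). This share cannot be read across the list forms, since Igkc stood at 1815 and 2485 CPM in gated B cells of the filtered libraries and at 26333, 14872, 14306 and 17863 in the others. Within the unfiltered libraries the lambda share was 28.4 and 31.8% on ND and 16.1 and 11.4% on MCDHFD. Within the filtered pair it was 91.7% and 58.3%, where the MCDHFD value rests on 12 cells. Thinned to 2000 UMIs, the order of that pair reversed, with 90.7% on ND and 100% of 2 cells on MCDHFD.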

How the data were processed

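Splenocytes were profiled with 10x Genomics 3' v3.1 chemistry. The authors deposited unnormalized UMI counts per gene and barcode for each of 6 libraries; per the file headers these came from Cell Ranger 9.0.1 for the 4 libraries with unfiltered barcode lists and 7.2.0 for the 2 with filtered lists, while the submitters' processing notes name Cell Ranger 9.1.0, Seurat 4.3.0 and mm10. Kept barcodes had 1000 or more UMIs, 400 or more genes and no more than 10% of UMIs from mitochondrial genes. UMIs of gated cells were summed per library and population and tested with edgeR 4.0.16 (TMM, filterByExpr, quasi-likelihood, Benjamini-Hochberg over all genes tested), with list form and diet in diet fits and library in fits within libraries. DESeq2 1.42.0, other scalings and filters, thinning, doublet removal by Scrublet (main counts keep predicted doublets) and left-out libraries were the alternatives. Cells with over 20000 UMIs or at least 0.5% Jchain were left out in a setting chosen after the data were seen. Shares were compared by exact two-sided permutation. CPM are counts per 1000000 UMIs of the summed cells.

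Members and the 23 gene lists were chosen with earlier results of these data known. Genes were named by rule: up to 12 in each direction by fold change with an adjusted p under 0.05, a mean log2 CPM of at least 5 and 1 direction in all libraries (by diet, no overlap), the 5 smallest p each way for the interaction, and up to 5 members of each list; Agbl1 was added after its values were seen. Summed transitional counts per library were 262224 to 1529164 UMIs. Of genes changed by 1 on the log2 scale in simulated counts, 6, 71.5, 2 and 76% were recovered in the diet, marker-negative, interaction and Fcer2a comparisons over all cells. Among the genes called there, 0, 4.67, 20 and 1.94% were unchanged ones. The simulation gave all genes 1 dispersion and no effect of library or list form. It was not run without deep and Jchain-rich cells.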

Additional observations from a re-analysis of the deposited data

Results flagged for a closer look

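For 16 named genes the effect of diet differed between transitional and marker-negative B cells by the interaction test itself, without deep and Jchain-rich cells, a setting chosen after the data were seen. On the log2 scale the difference was -1.13 (edgeR adjusted p = 1.57e-05) for Vpreb3, -1.12 (edgeR adjusted p = 0.00303) for Cd24a, -0.76 (edgeR adjusted p = 2.10e-05) for Ly6d, -0.59 (edgeR adjusted p = 0.00475) for Cd79b and -0.64 (edgeR adjusted p = 7.47e-04) for Ighm, genes of the B cell surface and its receptor. It was -2.20 (edgeR adjusted p = 9.50e-10) for Sox5, -1.61 (edgeR adjusted p = 7.96e-04) for Lmo4 and -1.83 (edgeR adjusted p = 0.0153) for Fam129c. These were likewise lower on MCDHFD in transitional cells relative to marker-negative cells. For Sox5, marker-negative cells of the unfiltered libraries had the higher level on MCDHFD, and its transitional levels overlapped between the diets.

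Genes of neutrophils showed the same sign, with differences of -3.27 (edgeR adjusted p = 3.19e-29) for S100a9, -2.43 (edgeR adjusted p = 5.05e-12) for S100a8 and -2.90 (edgeR adjusted p = 7.86e-06) for Wfdc21, while the summed neutrophil level in marker-negative cells varied from 274 to 13898 CPM between libraries. The differences were positive for Tnik at 2.09 (edgeR adjusted p = 3.41e-04), for Rasgef1b, a guanine nucleotide exchange factor, at 1.53 (edgeR adjusted p = 0.00391), for Atxn1 at 1.25 (edgeR adjusted p = 0.023), for B4galnt1, a ganglioside synthase, at 1.20 (edgeR adjusted p = 0.00271) and for Lncpint at 0.96 (edgeR adjusted p = 0.00153). Over all gated cells none of the 16 passed. With 1 library left out in turn, S100a9, Sox5 and Ighm passed in 6 of 6 fits, and Vpreb3, Ly6d, Lmo4 and S100a8 in 5. Cd79b and Tnik passed in 4, Cd24a, Lncpint, Wfdc21, Rasgef1b and B4galnt1 in 3, Fam129c in 2 and Atxn1 in 1.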

How the results depend on the processing

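Over all alternatives, 89 values of shares and counts of called genes were like the reported ones, 46 moved and 6 changed sign. For single genes 1329 values kept their direction and side of the threshold, 345 newly passed, 139 no longer passed and 10 changed sign. The lower transitional share on MCDHFD kept its sign in each setting run, with a difference from -3.85 to -3.28 percentage points when 1 library was left out. The counts of called genes were the least stable results, and the causes were not tested. By diet, where 0 passed, the count was 15 with DESeq2, 182 with no filter on low counts, 83 with at least 3 UMIs of the gate genes, 14 after thinning, 204 without deep and Jchain-rich cells, 327 in the unfiltered libraries, 326 in those without deep cells and 414 in all gated B cells. Against marker-negative cells it was 178 with DESeq2, 611 with no filter, 307 with at least 3 UMIs, 186 after thinning, 455 without deep cells, 255 in unfiltered libraries, 781 against Cr2-positive B cells, 382 in ND alone and 1 in MCDHFD alone. For the interaction it was 0 with DESeq2, 87 with no filter, 139 with at least 3 UMIs, 59 without deep cells, 55 in unfiltered libraries and 1 without a term for population by list form. For the Fcer2a split it was 402 with DESeq2, 784 with no filter, 97 with at least 3 UMIs and 128 without deep cells and MCDHFD replicate 3; the split thinned to 2000 UMIs was not run, since MCDHFD replicate 3 lacked cells. With 1 library left out the counts ran from 0 to 276 by diet, 0 to 296 against marker-negative cells, 9 to 35 for the interaction and 26 to 380 for the split, the Fcer2a share difference from 9.64 to 18.6, the lambda difference from -36.9 to -1.49 and the cycling difference from 0.749 to 5.67 percentage points. The signs changed for the Fcer2a share at 1 UMI of the gate genes (-0.746), for the cycling share at 1 UMI (-1.65), thinned to 2000 UMIs (-2.28), thinned to 3000 UMIs (-0.048), with no condition on Cr2 and Bhlhe41 (-1.67) and without deep cells (-1.71 percentage points), for Ighm by diet thinned (-0.54), without deep cells (-0.79) and in the unfiltered libraries without them (-0.51), for Cd38 in all gated B cells (0.034), for Vpreb3 (-0.24) and Bach2 (-0.18) against marker-negative cells in MCDHFD alone, and for the interaction of Atxn1 thinned (-2.17) and without MCDHFD replicate 1 (-0.33, against up to 0.89 without MCDHFD replicate 2) and of Ighm thinned (-1.03) and without deep cells (-0.64). Thinning moved the median interaction of all genes to -0.52.

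Same-numbered libraries had correlations of 0.0649, -0.406 and -0.599 across 2446 genes, taken over deviations from the diet means. Numbers 2 and 3 each join a filtered with an unfiltered library, while the 2 filtered libraries had a correlation of 0.485. The check therefore carries the list form and cannot decide whether the numbers pair the libraries. With a replicate block and the list form 47 genes passed by diet, and with the block alone 0. Sign flips of numbered pairs, an exact test, gave p = 0.25 for the transitional and Fcer2a shares, 0.75 for lambda and 1 for cycling, where 0.25 is the smallest possible.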
